A study of Homo sapiens with 8 samples.

Results

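The proteasome is built from a core particle, a regulatory particle and a set of activators, and its assembly is helped by dedicated chaperones. The genes described here are those whose symbols start with PSMA, PSMB, PSMC, PSMD, PSME, PSMF or PSMG followed by a digit, with pseudogenes left out, which gave 49 of 25593 gene rows. They were measured by RNA sequencing in Kasumi-1 and HL60 cells, both human acute myeloid leukaemia lines, kept for 24 h with 100 nM cinobufagin or without it. Cinobufagin is a bufadienolide of toad venom that inhibits the Na+/K+-ATPase, and the study's title concerns genes of the MYC pathway in these cells. The 8 libraries form 4 groups of 2, namely cinobufagin-treated Kasumi-1, untreated Kasumi-1, cinobufagin-treated HL60 and untreated HL60. Kasumi-1 is a line with the RUNX1-RUNX1T1 fusion and was grown with 20% serum, while HL60 is a promyelocytic line that was grown with 10% serum, so the line and the serum cannot be told apart. A labelled dose of 0 nM is called untreated, because the labels do not say whether a vehicle was added. Whether replicate libraries were made from different cultures is also unstated, and the p-values then describe the scatter between libraries, some or all of which may be technical.

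In the core particle, a pair of alpha rings forms the gate and a pair of beta rings holds the proteolytic sites, which belong to PSMB5, PSMB6 and PSMB7. Cells of the blood lineages also make the immunoproteasome, in which PSMB8, PSMB9 and PSMB10 take the places of PSMB5, PSMB6 and PSMB7 and change the peptides made for presentation on HLA class I molecules. The regulatory particle recognises ubiquitin chains, removes them and unfolds the substrate with a ring of ATPases. When proteasome activity is short, the transcription factor NFE2L1 is processed by NGLY1 and DDI2 and raises the transcription of most subunit genes together.

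Values are FPKM, which scale reads to transcript length and to the mapped reads of the library, and a change is a difference in log2(FPKM + 1), given with its standard error. A change is called where the adjusted p of limma, by Benjamini-Hochberg over 12511 tested genes, lies under 0.05. Each library had 10623 to 11371 genes at 1 FPKM or more, relative depth ranged from 0.785 to 1.06, and replicates correlated with Pearson's r of 0.9973 to 0.9978 across genes on the log2 scale. The Kasumi-1 markers RUNX1T1, CD34 and TRH were listed at 0 in every HL60 library. KIT, the remaining gene listed as marking Kasumi-1, was not, and fell in treated HL60 (log2 change −0.52, adjusted p = 0.00218). It was higher in untreated Kasumi-1 than in untreated HL60 by 6.38 on the log2 scale. Markers of T and NK, B, erythroid and megakaryocyte cells summed to at most 3.47 FPKM per list. EPCAM, an epithelial marker, reached 78.5 FPKM in Kasumi-1. The 4 genes listed as marking HL60 (MYC, MPO, ELANE and AZU1) all fell in treated HL60, with log2 changes of −4.64 to −2.85, while 3 rose and 1 fell in treated Kasumi-1. Between the untreated lines MPO, ELANE and AZU1 were higher in Kasumi-1, by 0.86, 2.56 and 1.23 on the log2 scale, so these 3 do not mark HL60 against Kasumi-1, and MYC was lower in Kasumi-1 by 1.31. The part of that change in the HL60 results below was not tested. The small RNA SNORD50A was listed at 0 in every replicate 1 and at 45596 to 748781 FPKM in every replicate 2, so scaling was also tried over genes other than short RNAs.

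Of the 49 genes, 47 were tested. PSMA8, the testis alpha subunit, and PSMB11, the thymus beta subunit, were listed at 0 in all 8 libraries. In Kasumi-1, 23 of the 47 fell and 1 rose with cinobufagin, which is 51.1% called against 26.3% of all tested genes. The falling genes made up 48.9% of the 47, against 16.2% of all tested genes, and the rising gene 2.13%, against 10.1%. In HL60, 23 fell and 12 rose, so that the 74.5% called lies near the 73.6% of all tested genes and is no result about the proteasome. There, the falling genes made up 48.9%, against 37.6% of all tested genes, and the rising genes 25.5%, against 36% of all tested genes. The changes in HL60 were smaller than those of other genes, with a median absolute log2 change of 0.34 over the 47 and 0.57 over all tested genes, while in Kasumi-1 the medians were 0.22 over the 47 and 0.17 over all tested genes. By limma, 0 genes of the 47 were called with a change of 2-fold or more in Kasumi-1, against 0.575% of all tested genes, and 6 were in HL60 (12.8%, against 26% of all tested genes). At an unadjusted p under 0.05, 3 genes were higher (PSMB10, PSMD9 and PSMC3IP) and 31 lower in treated Kasumi-1, so the counts of 0 rising genes given for classes below cover at most PSMB10 and PSMD9 at that level.

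The log2 change lay below 0 for 42 of the 47 genes in Kasumi-1 and for 29 in HL60. Its median was −0.21 in Kasumi-1 and −0.20 in HL60, against −0.04 and −0.01 over all tested genes in the same lines. In all, 13 genes fell in both lines (27.7%, against 10.6% of all tested genes). They are 13 of the 23 that fell in Kasumi-1, beside 1331 of 2026 among all tested genes. A fall in Kasumi-1 thus went with a fall in HL60 no more often than among all tested genes. Another 6 fell in Kasumi-1 and rose in HL60, namely PSMA1, PSMA7, PSMC3, PSMC6, PSMD7 and PSMD12 (12.8%, against 2.11% of all tested genes). Of 17 alternatives, the Kasumi-1 call held in 17 for PSMA1, 14 for PSMD7, 12 for PSMD12, 11 for PSMC3, 5 for PSMC6 and 4 for PSMA7. The joint share was not recomputed under them. The difference between the drug responses of the lines passed the test for each of those 6. Called changes of opposite sign in the same fit largely fix that outcome in advance, so it is no separate support. The summed FPKM of the 49 genes was 3814 and 3595 in treated Kasumi-1, against 4394 and 4159 in untreated Kasumi-1, and 3713 and 3620 in treated HL60, against 4003 and 3869 in untreated HL60. As a share of all FPKM outside short RNAs, the sum was 0.602% and 0.611% in treated Kasumi-1, against 0.711% and 0.719% in untreated Kasumi-1. In HL60 that share was 0.695% and 0.685% in treated cells, against 0.646% and 0.657% in untreated cells, so the summed level there was lower or higher with treatment depending on the scale. FPKM are relative to the rest of the RNA, and in bulk RNA fewer expressing cells and less RNA per cell cannot be told apart.

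When a Kasumi-1 library was left out, the falling share of all tested genes in that line lay below the 16.2% found with all 8 libraries. Under median ratio rescaling that share was 12.5%. The number of falling genes among the 47 in Kasumi-1 also depended on the libraries used. It was lower whenever a Kasumi-1 library was left out, and the falling share of the 47 stayed above that of all tested genes each time. When libraries were rescaled by their median ratio, 3 genes rose (6.38%, against 13.3% of all tested genes) and 14 fell (29.8%, against 12.5%). In HL60, 14 fell and 18 rose when libraries were rescaled without short RNAs. The falling share was then 29.8%, against 30.9% of all tested genes, and the rising share 38.3%, against 40.7%, so the larger falling share in HL60 depends on the scaling. Under quantile normalization 28 fell in HL60 (59.6%, against 35.9% of all tested genes) and 10 rose (21.3%, against 36.5%).

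**Figure D1:**
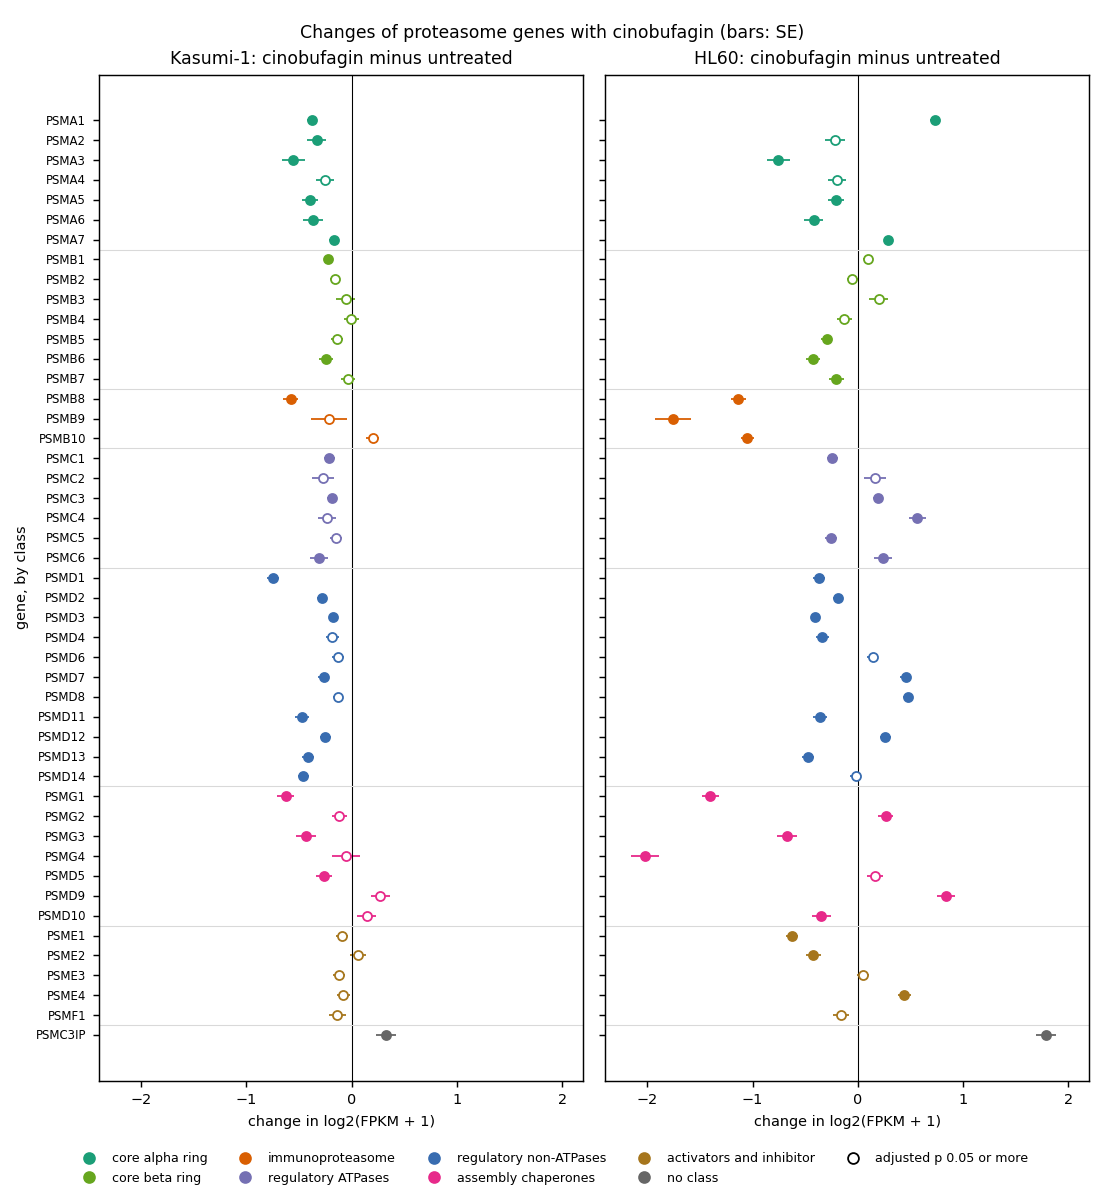
Change in log2(FPKM + 1) with cinobufagin for the 47 tested genes, by class, in Kasumi-1 (left) and HL60 (right). Points are fitted changes over 2 treated and 2 untreated libraries, bars are standard errors, and open points have an adjusted p of 0.05 or more. The Kasumi-1 points lie in a narrow band, mostly below 0, while the HL60 points spread to both sides, with the immunoproteasome, PSMG1 and PSMG4 furthest down and PSMC3IP furthest up.

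All 3 immunoproteasome subunits fell in HL60 (37.6% of all tested genes did), and PSMB8 alone of the 3 passed the test in Kasumi-1. Their median log2 change was −1.13 in HL60, and lay between −1.21 and −0.96 under the alternatives run. PSMB8, which replaces PSMB5, had 9.57 and 10.6 FPKM in treated Kasumi-1 cells, against 16.3 and 14.8 FPKM in untreated Kasumi-1 cells, and 30.3 and 32.5 FPKM in treated HL60 cells, against 70.0 and 70.1 FPKM in untreated HL60 cells. The treated libraries lay below the untreated ones in both lines, with log2 changes of −0.58 ± 0.07 in Kasumi-1 (adjusted p = 0.00364) and −1.13 ± 0.07 in HL60 (adjusted p = 1.44e-05).

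PSMB9, which replaces PSMB6, was the least abundant of the 3. It had 0.674 and 0.316 FPKM in treated Kasumi-1 cells, against 0.893 and 0.563 FPKM in untreated Kasumi-1 cells, a range in which the groups overlap and no change was called (log2 change −0.21 ± 0.17, adjusted p = 0.411). HL60 libraries had 2.08 and 1.72 FPKM in treated cells, against 7.76 and 9.94 FPKM in untreated cells, a log2 change of −1.76 ± 0.17 (adjusted p = 0.000105). This was the largest fall of the class, and the groups did not overlap.

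PSMB10, which replaces PSMB7, moved in HL60 and was not called in Kasumi-1. It had 42.0 and 40.8 FPKM in treated Kasumi-1 cells, against 37.7 and 34.0 FPKM in untreated Kasumi-1 cells, and the groups did not overlap (log2 change 0.20 ± 0.06, adjusted p = 0.0564). The HL60 libraries held 40.3 and 38.0 FPKM in treated cells, against 81.7 and 82.7 FPKM in untreated cells (log2 change −1.05 ± 0.06, adjusted p = 1.02e-05). The drug responses of the lines differed for all 3 genes, by 0.55 for PSMB8, 1.55 for PSMB9 and 1.25 for PSMB10 on the log2 scale (adjusted p = 0.00341, 0.00168 and 5.27e-05). PSMB9 lay below 1 FPKM in every Kasumi-1 library and passed the filter on low values through HL60, so its value in Kasumi-1 says little. For PSMB8 the adjusted p of that difference was 0.0636 when libraries were rescaled without short RNAs.

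PSMB8 and PSMB9 lie near each other on chromosome 6, with RefSeq start sites 9513 bases apart. Some exons listed for the pair in the GENCODE v29 annotation overlap on opposite strands. The kit keeps strand, but how strand was set in counting is unknown here, so reads from that overlap could have been assigned to either gene. Next to PSMB9 lies TAP1, a subunit of the transporter that carries peptides to class I molecules, and the start sites of PSMB9 and TAP1 are 488 bases apart and point away from each other. The pair changed in opposite directions in HL60. TAP1 had 16.0 and 17.4 FPKM in treated HL60 cells, against 8.84 and 9.03 FPKM in untreated HL60 cells, a rise of 0.83 ± 0.16 on the log2 scale (adjusted p = 0.00303). The ratio of PSMB9 to TAP1 was 0.114 ± 0.022 in treated HL60 and 0.989 ± 0.16 in untreated HL60 (SD, n = 2 each). In Kasumi-1, TAP1 had 1.08 and 1.99 FPKM in treated cells, against 1.16 and 1.16 FPKM in untreated cells, and was not called (adjusted p = 0.397).

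The promoter windows of the 3 immunoproteasome genes that fell together in HL60, and of TAP1 that rose there, are shown from 250 bases before to 50 bases after each start, from RefSeq on GRCh38.p14. They lie at chr6:32853942-32854241 on the plus strand for PSMB9, at chr6:32853655-32853954 on the minus strand for TAP1, at chr6:32844630-32844929 on the minus strand for PSMB8 and at chr16:67936801-67937100 on the minus strand for PSMB10. Capitals mark the CCAAT box, bound by NF-Y, and the antioxidant response element core TGACNNNGC, bound by NFE2L1, NFE2L2 and their MAF partners, each on either strand.
PSMB9: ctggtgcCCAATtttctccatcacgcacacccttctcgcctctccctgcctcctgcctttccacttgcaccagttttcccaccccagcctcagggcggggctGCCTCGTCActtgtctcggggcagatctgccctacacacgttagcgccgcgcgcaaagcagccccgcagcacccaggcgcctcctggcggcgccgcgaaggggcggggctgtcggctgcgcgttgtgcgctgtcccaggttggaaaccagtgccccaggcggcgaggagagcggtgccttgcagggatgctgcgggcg
TAP1: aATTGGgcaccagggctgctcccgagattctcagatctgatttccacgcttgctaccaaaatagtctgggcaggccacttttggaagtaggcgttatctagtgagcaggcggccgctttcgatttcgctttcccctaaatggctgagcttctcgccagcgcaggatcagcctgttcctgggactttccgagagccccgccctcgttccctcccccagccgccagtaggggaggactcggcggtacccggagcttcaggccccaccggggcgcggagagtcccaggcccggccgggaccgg
PSMB8: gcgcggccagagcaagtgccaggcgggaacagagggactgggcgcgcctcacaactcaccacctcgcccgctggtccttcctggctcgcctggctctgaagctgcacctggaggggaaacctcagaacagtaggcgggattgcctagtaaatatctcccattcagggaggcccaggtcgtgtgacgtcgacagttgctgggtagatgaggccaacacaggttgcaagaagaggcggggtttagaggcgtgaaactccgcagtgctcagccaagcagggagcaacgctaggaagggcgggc
PSMB10: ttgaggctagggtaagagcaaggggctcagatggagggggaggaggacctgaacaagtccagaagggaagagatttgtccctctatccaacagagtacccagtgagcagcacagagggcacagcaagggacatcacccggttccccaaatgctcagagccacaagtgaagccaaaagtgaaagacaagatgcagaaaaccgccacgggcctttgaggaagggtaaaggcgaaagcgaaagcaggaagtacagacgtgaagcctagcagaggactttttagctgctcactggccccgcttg
The PSMB9 and TAP1 windows share 13 bases, and the CCAAT box of both is the same stretch of 5 bases. The antioxidant core stands in the PSMB9 window alone of the 4. These are matches of letters and show no binding.

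The constitutive partners had log2 changes of −0.24 to −0.04 in Kasumi-1 and −0.43 to −0.20 in HL60. PSMB5, the chymotrypsin-like subunit, had 123 and 118 FPKM in treated Kasumi-1 cells, against 137 and 128 FPKM in untreated Kasumi-1 cells (log2 change −0.14 ± 0.06, adjusted p = 0.117). In HL60 it had 73.0 and 77.4 FPKM in treated cells, against 92.7 and 92.4 FPKM in untreated cells, and it fell by 0.30 ± 0.06 on the log2 scale (adjusted p = 0.00267). Treated libraries lay below untreated ones in both lines.

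PSMB6, the caspase-like subunit, fell in both lines. It had 73.1 and 70.1 FPKM in treated Kasumi-1 cells, against 86.2 and 83.6 FPKM in untreated Kasumi-1 cells, and 47.3 and 41.8 FPKM in treated HL60 cells, against 61.1 and 59.2 FPKM in untreated HL60 cells. The log2 changes were −0.24 ± 0.07 in Kasumi-1 (adjusted p = 0.0403) and −0.43 ± 0.07 in HL60 (adjusted p = 0.00107). The Kasumi-1 call held in 7 of 17 alternatives.

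PSMB7, the trypsin-like subunit, had 185 and 167 FPKM in treated Kasumi-1 cells, against 189 and 172 FPKM in untreated Kasumi-1 cells, and these overlap (log2 change −0.04 ± 0.07, adjusted p = 0.748). HL60 libraries had 140.2 and 139 FPKM in treated cells, against 164 and 158 FPKM in untreated cells, a fall of 0.20 ± 0.07 on the log2 scale (adjusted p = 0.0328). The HL60 call of PSMB5 was lost when libraries were rescaled without short RNAs, and that of PSMB7 held in 11 of 17 alternatives.

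Within a library, the immunoproteasome subunits made up a smaller part of the catalytic transcripts in treated HL60. They held 12.0% and 12.7% of the summed FPKM of the 6 catalytic genes in treated Kasumi-1, against 11.8% and 11.4% in untreated Kasumi-1, and 21.8% and 21.9% in treated HL60, against 33.4% and 34.4% in untreated HL60. The share does not depend on the scaling of a library. The ratio of PSMB8 to PSMB5 was 0.084 ± 0.0089 in treated Kasumi-1 and 0.117 ± 0.0020 in untreated Kasumi-1, and 0.418 ± 0.0034 in treated HL60 and 0.757 ± 0.0025 in untreated HL60 (SD, n = 2 each). The ratio of PSMB10 to PSMB7 ran the other way in Kasumi-1, with 0.235 ± 0.012 in treated and 0.198 ± 0.0015 in untreated cells, and was 0.281 ± 0.0094 in treated and 0.511 ± 0.016 in untreated HL60. The ratio of PSMB9 to PSMB6 was 0.0069 ± 0.0033 in treated and 0.0085 ± 0.0026 in untreated Kasumi-1, and 0.043 ± 0.0020 in treated and 0.148 ± 0.029 in untreated HL60. No test was made of these ratios.

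**Figure D2:**
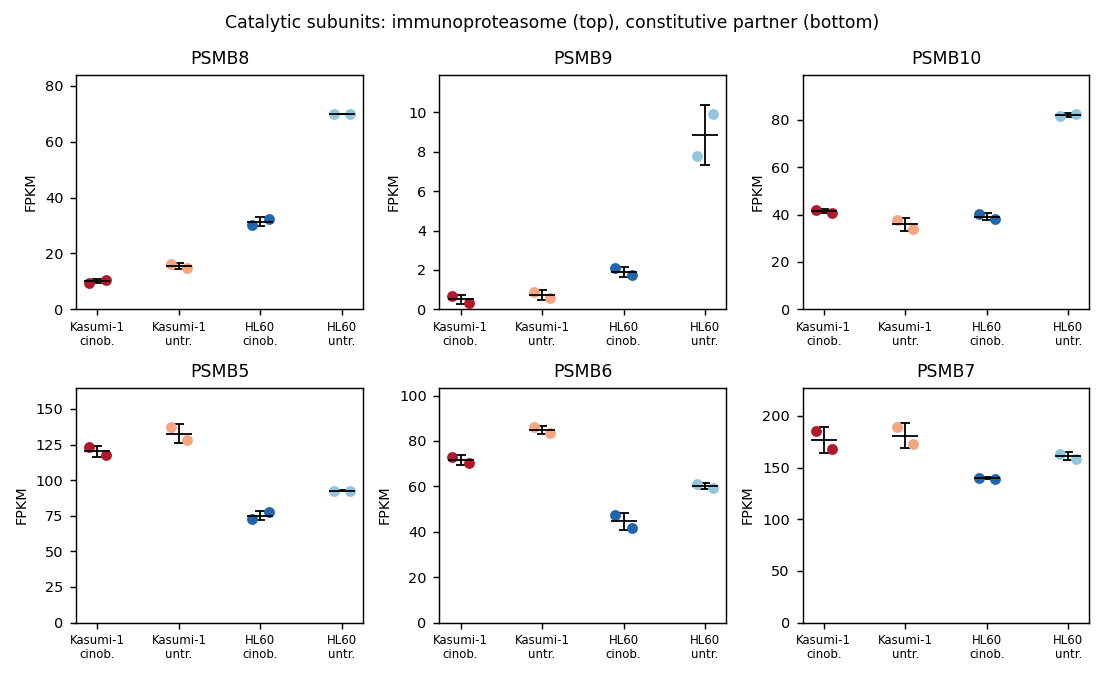
FPKM of the immunoproteasome subunits (top) and of the constitutive subunit that each replaces (bottom), per library. Coloured points are libraries, the long bar is the mean and the whiskers the SD (n = 2). In HL60 the treated libraries lie at or below 40.3 FPKM for PSMB10 and at or below 32.5 FPKM for PSMB8, under every untreated library of that line, and the bottom genes lie lower in treated than in untreated HL60 as well.

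In the alpha ring, 6 of 7 tested genes fell and 0 rose in Kasumi-1, while 3 fell and 2 rose in HL60. Of all tested genes 16.2% fell in Kasumi-1, and 37.6% fell and 36% rose in HL60. The median log2 change was −0.37 in Kasumi-1 and −0.21 in HL60. PSMA1 changed in opposite directions in the lines. It had 99.0 and 93.9 FPKM in treated Kasumi-1 cells, against 126 and 125 FPKM in untreated Kasumi-1 cells, and 204 and 206 FPKM in treated HL60 cells, against 120.5 and 125 FPKM in untreated HL60 cells. On the log2 scale the changes were −0.38 ± 0.05 in Kasumi-1 (adjusted p = 0.00366) and 0.74 ± 0.05 in HL60 (adjusted p = 1.53e-05), and their difference was −1.11 ± 0.07 (adjusted p = 3.09e-05). Between the untreated lines PSMA1 had a log2 difference of 0.03 ± 0.05 (adjusted p = 0.558).

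PSMA3 fell in both lines. It had 92.7 and 83.0 FPKM in treated Kasumi-1 cells, against 138 and 121 FPKM in untreated Kasumi-1 cells, and 79.4 and 69.8 FPKM in treated HL60 cells, against 136 and 118 FPKM in untreated HL60 cells. The log2 changes were −0.55 ± 0.11 in Kasumi-1 (adjusted p = 0.0148) and −0.76 ± 0.11 in HL60 (adjusted p = 0.000735), and no difference between them was called (adjusted p = 0.286). PSMA5 and PSMA6 also fell in both lines, PSMA7 fell in Kasumi-1 and rose in HL60, and PSMA2 fell in Kasumi-1. PSMA4 had log2 changes of −0.26 in Kasumi-1 and −0.20 in HL60 that did not pass. The Kasumi-1 call of PSMA7 held in 4 of 17 alternatives that of PSMA2 in 8 of 17, that of PSMA6 in 11 of 17 and those of PSMA3 and PSMA5 in 14 of 17. The HL60 call of PSMA5 held in 8 of 17, with a log2 change of −0.21 in FPKM and −0.03 when libraries were rescaled without short RNAs.

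Of the 4 other beta subunits, which carry no active site, PSMB1 fell in Kasumi-1, by 0.22 ± 0.04 on the log2 scale (adjusted p = 0.0121), and was not called in HL60. PSMB2, PSMB3 and PSMB4 were called in neither line, and PSMB4 had log2 changes of 0.00 in Kasumi-1 and −0.13 in HL60. Over the 7 constitutive beta genes, 2 fell and 0 rose in Kasumi-1 (16.2% and 10.1% of all tested genes did). In HL60, 3 fell and 0 rose (37.6% and 36% of all tested genes did). At an unadjusted p under 0.05, 0 rose in either line. In HL60, rescaling without short RNAs gave 1 that fell and 2 that rose, with a median of 0.06, against −0.13 in FPKM.

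Of the 6 ATPases of the regulatory particle, 3 fell and 0 rose in Kasumi-1 (16.2% and 10.1% of all tested genes did). In HL60, 2 fell and 3 rose (37.6% and 36% of all tested genes did). The median log2 changes were −0.22 in Kasumi-1 and 0.18 in HL60. PSMC4, which contacts the chaperone PSMD10 during assembly, had 69.9 and 64.0 FPKM in treated Kasumi-1 cells, against 77.0 and 80.4 FPKM in untreated Kasumi-1 cells (log2 change −0.23 ± 0.08, adjusted p = 0.0872). The HL60 libraries held 75.0 and 69.5 FPKM in treated cells, against 51.9 and 45.1 FPKM in untreated cells, and the gene rose by 0.57 ± 0.08 on the log2 scale (adjusted p = 0.000805). The groups did not overlap in either line.

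PSMC5 fell in HL60, with 78.2 and 82.8 FPKM in treated cells, against 96.4 and 95.4 FPKM in untreated cells (log2 change −0.25 ± 0.06, adjusted p = 0.00632). In Kasumi-1 it had 168 and 156 FPKM in treated cells, against 184 and 176 FPKM in untreated cells, and was not called (adjusted p = 0.1). PSMC6 had 52.3 and 49.6 FPKM in treated Kasumi-1 cells, against 67.3 and 59.9 FPKM in untreated Kasumi-1 cells, and 57.2 and 51.7 FPKM in treated HL60 cells, against 48.5 and 43.7 FPKM in untreated HL60 cells. It fell in Kasumi-1 (log2 change −0.31 ± 0.09, adjusted p = 0.0409) and rose in HL60 (log2 change 0.24 ± 0.09, adjusted p = 0.0429). Those calls held in 5 of 17 alternatives for Kasumi-1 and in 9 of 17 for HL60, while the difference between the lines was called in all 16 alternatives run for it. PSMC3 showed the same pair of directions, PSMC1 fell in both lines, and PSMC2 was called in neither. In Kasumi-1 the call of PSMC3 held in 11 of 17 alternatives and that of PSMC1 in 10 of 17.

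Among the 11 non-ATPase subunits, 8 fell and 0 rose in Kasumi-1 (16.2% and 10.1% of all tested genes did). In HL60, 6 fell and 3 rose (37.6% and 36% of all tested genes did). PSMD1, a large scaffold subunit of the base, had the largest fall of the 47 genes in Kasumi-1. It had 14.7 and 15.8 FPKM in treated Kasumi-1 cells, against 25.9 and 26.7 FPKM in untreated Kasumi-1 cells, and 24.0 and 23.1 FPKM in treated HL60 cells, against 31.5 and 30.0 FPKM in untreated HL60 cells. On the log2 scale the changes were −0.75 ± 0.06 in Kasumi-1 (adjusted p = 0.00123) and −0.37 ± 0.06 in HL60 (adjusted p = 0.000942), and the fall was the greater in Kasumi-1 (difference −0.38 ± 0.08, adjusted p = 0.00589).

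PSMD8, a subunit of the lid, rose in HL60. It had 159 and 161 FPKM in treated HL60 cells, against 114 and 115 FPKM in untreated HL60 cells (log2 change 0.48 ± 0.04, adjusted p = 8.58e-05). In Kasumi-1 it had 86.6 and 84.2 FPKM in treated cells, against 95.7 and 91.4 FPKM in untreated cells, and was not called (adjusted p = 0.0776). PSMD13, also of the lid, fell in both lines. It had 99.5 and 96.5 FPKM in treated Kasumi-1 cells, against 134 and 128 FPKM in untreated Kasumi-1 cells, and 59.5 and 55.8 FPKM in treated HL60 cells, against 82.3 and 78.2 FPKM in untreated HL60 cells. The log2 changes were −0.41 ± 0.06 in Kasumi-1 (adjusted p = 0.00437) and −0.47 ± 0.06 in HL60 (adjusted p = 0.00026).

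PSMD14, the deubiquitinase of the lid, and PSMD7, the subunit it pairs with, both fell in Kasumi-1, and PSMD7 rose in HL60. PSMD14 changed by −0.46 ± 0.05 in Kasumi-1 (adjusted p = 0.00292) and by −0.02 ± 0.05 in HL60 (adjusted p = 0.75). PSMD7 changed by −0.27 ± 0.05 in Kasumi-1 (adjusted p = 0.0151) and by 0.45 ± 0.05 in HL60 (adjusted p = 0.000264). PSMD2, PSMD3 and PSMD11 fell in both lines, PSMD12 fell in Kasumi-1 and rose in HL60, the ubiquitin receptor PSMD4 fell in HL60, and PSMD6 was called in neither. The Kasumi-1 calls of PSMD3, PSMD12 and PSMD7 held in 10, 12 and 14 of 17 alternatives. Rescaling without short RNAs ended the HL60 calls of PSMD1, PSMD2, PSMD11, PSMC1 and PSMC5.

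In log2(FPKM + 1) the assembly chaperones held the largest fall of the 47 genes, and they did not share a direction. Of 7 genes, 3 fell and 0 rose in Kasumi-1 (16.2% and 10.1% of all tested genes did). In HL60, 4 fell and 2 rose (37.6% and 36% of all tested genes did). PSMG1 and PSMG2 form a dimer, as do PSMG3 and PSMG4, and both dimers guide the assembly of the alpha ring. PSMG4 had 14.7 and 13.0 FPKM in treated Kasumi-1 cells, against 15.6 and 13.3 FPKM in untreated Kasumi-1 cells, ranges that overlap (log2 change −0.06 ± 0.13, adjusted p = 0.794). In HL60 it had 9.13 and 7.34 FPKM in treated cells, against 39.2 and 33.6 FPKM in untreated cells. Its fall of 2.02 ± 0.13 in log2(FPKM + 1) was the largest of the 47 genes (adjusted p = 1.7e-05). Under the alternatives run, the lowest log2 changes of PSMG4 and PSMB9 in HL60 were −2.16 each, so the rank is tied to that scale. The treated HL60 level of PSMG4 lay below both Kasumi-1 groups, while the untreated HL60 level lay above them.

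PSMG1 fell in both lines and by more in HL60. It had 54.9 and 49.1 FPKM in treated Kasumi-1 cells, against 82.8 and 78.5 FPKM in untreated Kasumi-1 cells, and 36.8 and 32.7 FPKM in treated HL60 cells, against 95.5 and 90.8 FPKM in untreated HL60 cells. On the log2 scale the changes were −0.63 ± 0.08 in Kasumi-1 (adjusted p = 0.00389) and −1.40 ± 0.08 in HL60 (adjusted p = 8.86e-06), and they differed by 0.77 ± 0.11 (adjusted p = 0.00122).

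PSMG2, the partner of PSMG1, rose in HL60 by 0.26 ± 0.07 on the log2 scale (adjusted p = 0.0125) and was not called in Kasumi-1. The rise held in 13 of 17 alternatives, and was lost under quantile normalization and without untreated replicate 1, treated replicate 1 or treated replicate 2 of HL60. The ratio of PSMG1 to PSMG2 was 1.00 ± 0.022 in treated and 1.44 ± 0.18 in untreated Kasumi-1, and 0.459 ± 0.037 in treated and 1.48 ± 0.087 in untreated HL60 (SD, n = 2 each). PSMG3, the partner of PSMG4, fell by 0.43 ± 0.10 in Kasumi-1 (adjusted p = 0.0211, a call kept in 13 of 17 alternatives) and by 0.67 ± 0.10 in HL60 (adjusted p = 7e-04). POMP, the core maturation factor that lacks the PSM prefix, had 26.4 and 24.1 FPKM in treated Kasumi-1 cells, against 32.7 and 26.8 FPKM in untreated Kasumi-1 cells (adjusted p = 0.133). HL60 libraries had 126 and 129 FPKM in treated cells, against 78.1 and 77.8 FPKM in untreated cells, a rise of 0.70 ± 0.09 (adjusted p = 0.000527). In HL60, PSMG1, PSMG3 and PSMG4 fell and PSMG2 and POMP rose.

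Of the chaperones of the ATPase base, PSMD9 rose in HL60. It had 25.5 and 22.4 FPKM in treated Kasumi-1 cells, against 21.0 and 18.3 FPKM in untreated Kasumi-1 cells (log2 change 0.27 ± 0.09, adjusted p = 0.0665), and 32.5 and 30.9 FPKM in treated HL60 cells, against 17.7 and 17.0 FPKM in untreated HL60 cells (log2 change 0.84 ± 0.09, adjusted p = 0.000156). PSMD10, also known as gankyrin, fell in HL60 by 0.35 ± 0.09 on the log2 scale (adjusted p = 0.0119), a call lost under rescaling without short RNAs and without untreated or treated HL60 replicate 2. PSMD5 fell in Kasumi-1 by 0.27 ± 0.08 (adjusted p = 0.0459), a call kept in 4 of 17 alternatives. PAAF1, a base chaperone without the prefix, had 11.7 and 13.7 FPKM in treated Kasumi-1 cells, against 15.8 and 16.6 FPKM in untreated Kasumi-1 cells, and 3.17 and 3.49 FPKM in treated HL60 cells, against 18.0 and 19.4 FPKM in untreated HL60 cells. Its log2 changes were −0.33 ± 0.09 in Kasumi-1 (adjusted p = 0.0383) and −2.19 ± 0.09 in HL60 (adjusted p = 2.26e-06), and the Kasumi-1 call held in 6 of 17 alternatives. It fell in HL60 further than any of the 47 genes.

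**Figure D3:**
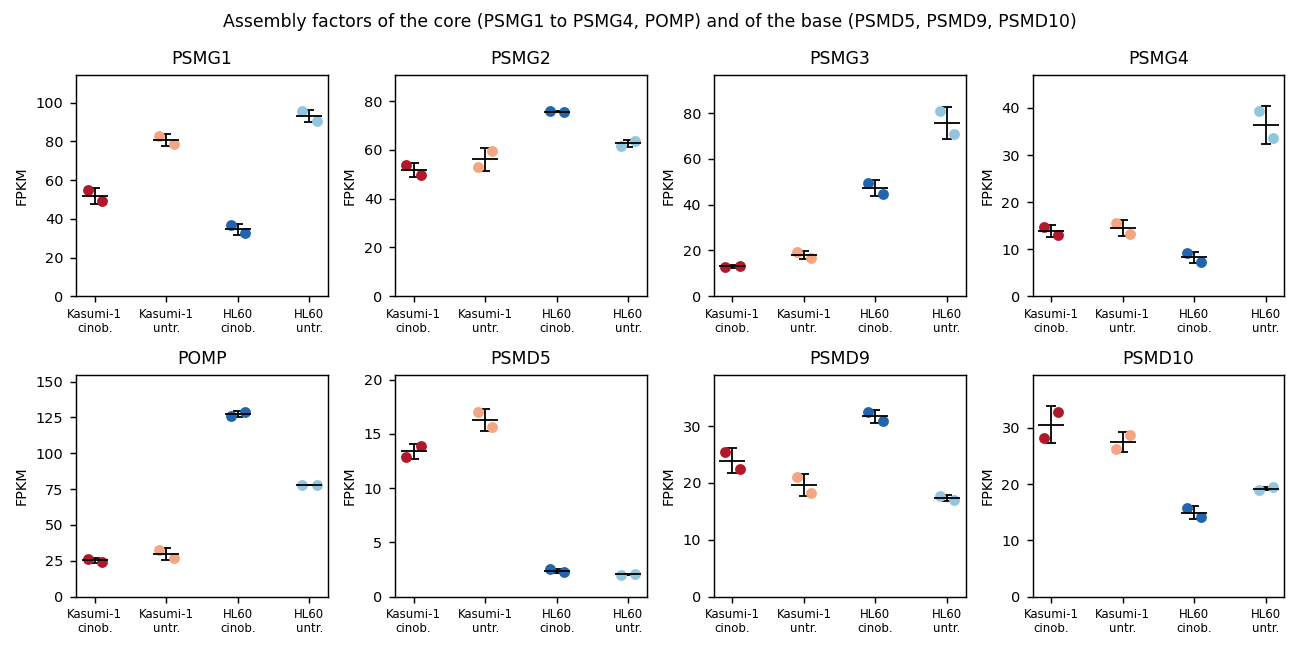
FPKM of the assembly factors of the core (PSMG1 to PSMG4 and POMP) and of the base (PSMD5, PSMD9, PSMD10), per library. Coloured points are libraries, the long bar is the mean and the whiskers the SD (n = 2). In HL60 the treated libraries of PSMG1, PSMG3 and PSMG4 lie below the untreated ones and those of PSMG2, POMP and PSMD9 above them.

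By limma, 0 of the 5 activators and regulators passed in Kasumi-1, also at an unadjusted p under 0.05. Of all tested genes 26.3% were called there, so with 5 genes this count is no result about the class. In HL60, PSME1 and PSME2, which together form the interferon-inducible PA28 cap, fell, and PSME4, the PA200 activator, rose. Of all tested genes 37.6% fell and 36% rose in HL60. PSME1 had 156 and 145 FPKM in treated Kasumi-1 cells, against 166 and 156 FPKM in untreated Kasumi-1 cells (adjusted p = 0.29). The HL60 libraries held 89.3 and 92.9 FPKM in treated cells, against 141 and 141 FPKM in untreated cells, a log2 change of −0.63 ± 0.06 (adjusted p = 8.06e-05).

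PSME2 had 109.7 and 96.9 FPKM in treated Kasumi-1 cells, against 103 and 94.3 FPKM in untreated Kasumi-1 cells, and these overlap (adjusted p = 0.58). In HL60 it had 90.4 and 92.4 FPKM in treated cells, against 124 and 121 FPKM in untreated cells, a log2 change of −0.42 ± 0.07 (adjusted p = 0.00182). Both genes fell in HL60 while their Kasumi-1 values did not pass. The response of the lines differed for PSME1 by 0.53 ± 0.08 (adjusted p = 0.0015) and for PSME2 by 0.49 ± 0.10 (adjusted p = 0.00651).

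PSME4 had 18.0 and 19.5 FPKM in treated Kasumi-1 cells, against 19.5 and 20.2 FPKM in untreated Kasumi-1 cells (adjusted p = 0.397), and 15.6 and 15.6 FPKM in treated HL60 cells, against 10.9 and 11.6 FPKM in untreated HL60 cells (log2 change 0.44 ± 0.06, adjusted p = 0.00058). PSMF1, which binds the core and was described as an inhibitor, had 28.3 and 30.0 FPKM in treated Kasumi-1 cells, against 31.6 and 32.6 FPKM in untreated Kasumi-1 cells, and 23.3 and 26.8 FPKM in treated HL60 cells, against 27.0 and 29.1 FPKM in untreated HL60 cells. It was called in neither line (adjusted p = 0.251 in Kasumi-1 and 0.11 in HL60). PSME3, the nuclear activator, was called in neither line either.

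PSMC3IP meets the symbol rule but encodes a factor of meiotic recombination, not a proteasome subunit, and it is the gene that rose in Kasumi-1. It had 10.5 and 8.68 FPKM in treated Kasumi-1 cells, against 7.20 and 7.62 FPKM in untreated Kasumi-1 cells (log2 change 0.33 ± 0.09, adjusted p = 0.0462). HL60 libraries had 45.2 and 44.4 FPKM in treated cells, against 12.9 and 11.7 FPKM in untreated cells, the largest rise of the 47 genes (log2 change 1.78 ± 0.09, adjusted p = 6.5e-06). That Kasumi-1 call held in 6 of 17 alternatives, and without the gene 0 of the 46 others rose there. Its exons overlap those of MLX on the opposite strand, which reached 47.0 FPKM, so its level is uncertain.

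The difference between the drug responses, Kasumi-1 minus HL60, was called for 27 of the 47 genes, 57.4% against 63.1% of all tested genes, with 9 above 0 (19.1%, against 30.1% of all tested genes) and 18 below 0 (38.3%, against 33.1%). The regulatory particle held 10 of those below 0 and 1 above 0, PSMD3, among its 17 genes. All 3 immunoproteasome genes, PSME1, PSME2, PSMG1, PSMG4 and PSMD10 were above 0, meaning a lower log2 change in HL60. Under quantile normalization the split moved to 15 above and 15 below 0 (31.9% each, against 29.4% and 30.8% of all tested genes), near the shares of all tested genes. It moved to 6 above (12.8%, against 22.8%) and 24 below 0 (51.1%, against 38%) when libraries were rescaled without short RNAs. That last scaling also moved the median difference of all tested genes to −0.21, against −0.03 in FPKM.

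Untreated Kasumi-1 and untreated HL60 differed in 31 of the 47 genes, 66% against 69.7% of all tested genes, with 21 higher (44.7%, against 35.9% of all tested genes) and 10 lower in Kasumi-1 (21.3%, against 33.8%). Of the 17 regulatory particle genes 11 were higher and 2 lower in Kasumi-1, and of the 14 constitutive core genes 6 were higher, 1 was lower and 7 were not called. PSMC5 averaged 179.6 ± 5.8 FPKM in untreated Kasumi-1 and 95.9 ± 0.66 FPKM in untreated HL60 (log2 difference 0.90 ± 0.06, adjusted p = 1.4e-05), and PSMD14 averaged 107 ± 4.3 FPKM in untreated Kasumi-1 and 57.9 ± 2.7 FPKM in untreated HL60 (log2 difference 0.88 ± 0.05, adjusted p = 1.05e-05).

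The immunoproteasome genes PSMB8 and PSMB10 were lower in untreated Kasumi-1, by 2.10 and 1.17 on the log2 scale (adjusted p = 9.05e-07 and 6.03e-06). PSMB9 had a log2 difference of −2.51, which lay between −3.45 and −2.35 under the alternatives run. It was below 1 FPKM in every Kasumi-1 library and passed the filter through HL60, so its test is no separate support. Treated HL60 cells, after the fall, still had more PSMB8 and PSMB9 than either Kasumi-1 group, while their PSMB10 level stood within the range of the Kasumi-1 libraries. PSMG3 and PSMG4 were also lower in Kasumi-1, with PSMG3 at 17.9 ± 1.7 FPKM in untreated Kasumi-1 and 75.7 ± 7.0 FPKM in untreated HL60 (log2 difference −2.02 ± 0.10, adjusted p = 3.76e-06). PSMD5 went the other way and averaged 16.3 ± 1.0 FPKM in untreated Kasumi-1 and 2.03 ± 0.021 FPKM in untreated HL60 (log2 difference 2.51 ± 0.08, adjusted p = 5.48e-07). POMP, by contrast, averaged 29.7 ± 4.2 FPKM in untreated Kasumi-1 and 77.9 ± 0.16 FPKM in untreated HL60 (log2 difference −1.37 ± 0.09, adjusted p = 2.18e-05).

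**Figure D4:**
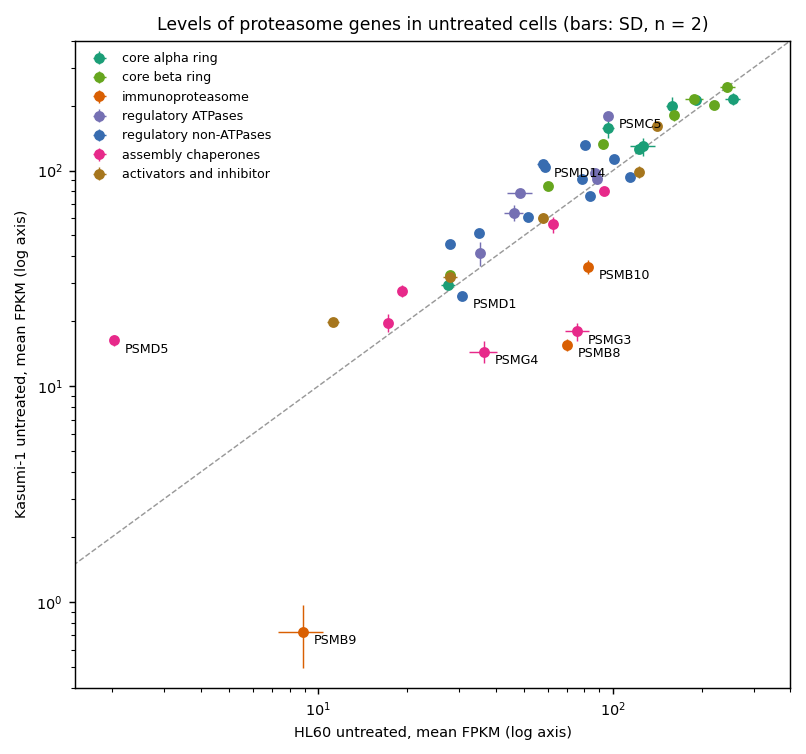
Mean FPKM of the proteasome genes in untreated Kasumi-1 (vertical, log axis) against untreated HL60 (horizontal, log axis), by class. Bars are the SD (n = 2) and the dashed line marks equal levels. PSMB8, PSMB9, PSMB10, PSMG3 and PSMG4 lie well below the line, and PSMD5 lies well above it.

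Although each subunit of the core and of the regulatory particle is needed in fixed proportion in the complex, transcript levels per length were unequal. Over the 31 constitutive subunits, the highest mean was 16.0-fold the lowest in treated Kasumi-1 and 9.28-fold in untreated Kasumi-1, and 9.98-fold in treated HL60 and 9.21-fold in untreated HL60. PSMD1 was the lowest in treated Kasumi-1 at 15.2 FPKM, in untreated Kasumi-1 at 26.3 FPKM and in treated HL60 at 23.5 FPKM, and PSMA5 was the lowest in untreated HL60 at 27.7 FPKM. PSMB4 was the highest in both Kasumi-1 groups, PSMB1 in treated HL60 and PSMA6 in untreated HL60. Named pseudogenes exist in the annotation for 21 of the 49 genes and exons of 24 overlap another annotated gene, 13 of them a gene with a row of its own, so levels of such genes are uncertain.

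Of 13 cofactors without the prefix, 0 rose and 5 fell in Kasumi-1 (1 higher and 7 lower at an unadjusted p under 0.05), and 7 rose and 5 fell in HL60. These counts and those of the lists that follow stand against 10.1% rising and 16.2% falling in Kasumi-1, and 36% rising and 37.6% falling in HL60, among all tested genes. AKIRIN2, which brings proteasomes into the nucleus, had 17.0 and 18.7 FPKM in treated Kasumi-1 cells, against 15.2 and 15.5 FPKM in untreated Kasumi-1 cells (adjusted p = 0.0564), and 64.4 and 64.9 FPKM in treated HL60 cells, against 13.4 and 12.4 FPKM in untreated HL60 cells (log2 change 2.24 ± 0.06, adjusted p = 6.04e-07). ZFAND5, a proteasome-binding activator, rose in HL60 by 1.13 ± 0.07 (adjusted p = 1.67e-05), and SHFM1, a small subunit of the lid, by 0.77 ± 0.17 (adjusted p = 0.00572). The ubiquitin receptor ADRM1 and the deubiquitinase UCHL5, which binds to it, fell in both lines, with the Kasumi-1 call of ADRM1 kept in 9 of 17 alternatives. ADRM1 changed by −0.25 ± 0.06 in Kasumi-1 (adjusted p = 0.0314) and by −0.86 ± 0.06 in HL60 (adjusted p = 2.75e-05), and UCHL5 by −0.41 ± 0.06 in Kasumi-1 (adjusted p = 0.0069) and −0.78 ± 0.06 in HL60 (adjusted p = 4.32e-05). ZFAND2A fell in Kasumi-1 by 0.60 ± 0.09 (adjusted p = 0.00663).

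Of 12 regulators of proteasome genes, 2 rose and 2 fell in Kasumi-1, and 6 rose and 5 fell in HL60. NFE2L1 itself rose in both lines, by 0.19 ± 0.05 on the log2 scale in Kasumi-1 (adjusted p = 0.0337) and 0.78 ± 0.05 in HL60 (adjusted p = 1.39e-05). The Kasumi-1 call held in 8 of 17 alternatives. 2 enzymes that process it, NGLY1 and DDI2, fell in HL60, and DDI2 also in Kasumi-1. NGLY1 had 28.6 and 24.7 FPKM in treated Kasumi-1 cells, against 32.6 and 29.6 FPKM in untreated Kasumi-1 cells (adjusted p = 0.139), and 13.9 and 12.3 FPKM in treated HL60 cells, against 43.1 and 44.5 FPKM in untreated HL60 cells (log2 change −1.67 ± 0.09, adjusted p = 8.24e-06). DDI2, the protease, changed by −0.49 ± 0.09 in Kasumi-1 (adjusted p = 0.0137) and by −0.67 ± 0.09 in HL60 (adjusted p = 0.000652). NFE2L3, a relative of NFE2L1, changed by −0.58 ± 0.11 in Kasumi-1 (adjusted p = 0.0121) and by −1.01 ± 0.11 in HL60 (adjusted p = 0.000173).

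The small MAF proteins, which pair with NFE2L1, were divided. MAFF had 0.421 and 0.395 FPKM in treated Kasumi-1 cells, against 0.458 and 0.365 FPKM in untreated Kasumi-1 cells, and 13.0 and 13.3 FPKM in treated HL60 cells, against 0.225 and 0.269 FPKM in untreated HL60 cells (log2 change 3.50 ± 0.07, adjusted p = 2.01e-07). It reached 1 FPKM in treated HL60 libraries alone and passed the filter through them, and with a pseudocount of 0.1 its log2 change there was 5.26, so the size depends on the pseudocount. MAFG rose in both lines, by 0.64 ± 0.05 in Kasumi-1 (adjusted p = 0.00126) and 1.85 ± 0.05 in HL60 (adjusted p = 5.24e-07), and MAFK fell in HL60 by 0.71 ± 0.11 (adjusted p = 0.00094). STAT3 rose in HL60 by 1.55 ± 0.05 (adjusted p = 1.27e-06).

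Of 12 tested ubiquitin genes and shuttle factors, 1 rose and 0 fell in Kasumi-1 (2 higher and 1 lower at an unadjusted p under 0.05), and 8 rose and 1 fell in HL60. DDI1 was listed at 0 in every library. UBQLN1, a shuttle that carries ubiquitinated proteins to the proteasome, rose in HL60 by 1.13 ± 0.11 (adjusted p = 0.000109), and BAG6 by 0.96 ± 0.07 (adjusted p = 2.33e-05).

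Of 19 interferon and class I genes, 7 rose and 2 fell in Kasumi-1 (10.1% and 16.2% of all tested genes did), and 13 rose and 5 fell in HL60 (36% and 37.6% of all tested genes did), with a median log2 change of 0.21 in Kasumi-1 and 0.64 in HL60. HLA-B had 187 and 184 FPKM in treated Kasumi-1 cells, against 135 and 135 FPKM in untreated Kasumi-1 cells, and 832 and 895 FPKM in treated HL60 cells, against 393 and 392 FPKM in untreated HL60 cells. Its log2 changes were 0.46 ± 0.05 in Kasumi-1 (adjusted p = 0.00292) and 1.13 ± 0.05 in HL60 (adjusted p = 3.49e-06). Other genes of class I presentation also rose in both lines, HLA-C by 0.41 in Kasumi-1 and 0.84 in HL60, B2M by 0.51 in Kasumi-1 and 1.02 in HL60, and TAPBP by 0.51 in Kasumi-1 and 0.66 in HL60. In Kasumi-1 the call of TAPBP held in 10 of 17 alternatives and those of HLA-C and B2M in 14 of 17. HLA genes are close copies of each other, so reads could be divided among them.

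TAP2, the partner of TAP1 in the peptide transporter, fell in both lines, unlike TAP1. It had 2.40 and 2.34 FPKM in treated Kasumi-1 cells, against 4.50 and 3.94 FPKM in untreated Kasumi-1 cells, and 4.27 and 4.17 FPKM in treated HL60 cells, against 10.3 and 11.9 FPKM in untreated HL60 cells. The log2 changes were −0.63 ± 0.09 in Kasumi-1 (adjusted p = 0.00512) and −1.21 ± 0.09 in HL60 (adjusted p = 2.66e-05). The peptide-trimming enzyme ERAP2 also fell in both lines, by 0.26 ± 0.07 in Kasumi-1 (adjusted p = 0.0393) and 0.81 ± 0.07 in HL60 (adjusted p = 6.81e-05), and its Kasumi-1 call held in 6 of 17 alternatives. NLRC5, a transactivator of class I genes, fell in HL60 by 0.50 ± 0.10 (adjusted p = 0.00277), while IFNGR2, a chain of the interferon gamma receptor, rose there by 1.94 ± 0.09 (adjusted p = 4.52e-06).

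**Figure D5:**
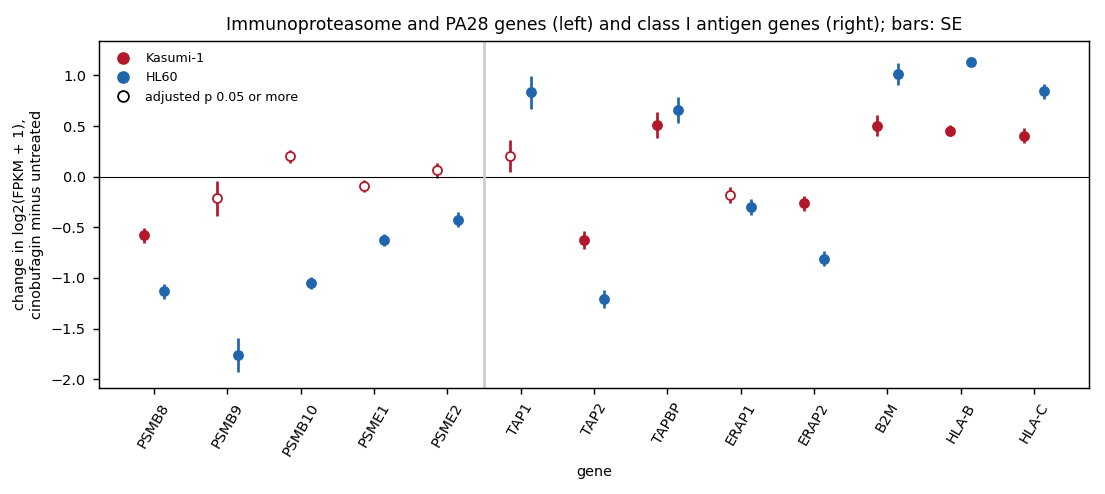
Change in log2(FPKM + 1) with cinobufagin for immunoproteasome and PA28 genes (left of the line) and genes of class I presentation (right), in Kasumi-1 and HL60. Points are fitted changes over 2 treated and 2 untreated libraries, bars are standard errors, and open points have an adjusted p of 0.05 or more. In HL60 all 5 genes on the left lie below 0, while TAP1, TAPBP, B2M, HLA-B and HLA-C lie above it and TAP2, ERAP1 and ERAP2 below it.

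RefSeq promoter windows of 300 bases were found for 43 of the 49 genes. The antioxidant response element core TGACNNNGC, searched on both strands, stood in 13 of them (30.2%), against 13.6% of all 27305 promoters in the table. The CCAAT box stood in 20 (46.5%), against 35.7% of all promoters, and the E-box CACGTG, which MYC and its relatives bind, in 3 (6.98%), against 7.43% of all promoters. The 13 genes with the antioxidant core did not share a direction. Of them, 0 rose and 5 fell in Kasumi-1 (10.1% and 16.2% of all tested genes did). Of the 47 tested proteasome genes 2.13% rose and 48.9% fell there, so these falls do not set the 13 apart from the others. In HL60, 5 rose (PSMC4, PSMD9, PSMD12, PSME4 and PSMG2) and 6 fell (PSMB9, PSMD1, PSMD3, PSME1, PSME2 and PSMG1). Among all tested genes 36% rose and 37.6% fell in HL60, so the mixed directions there are no result about these genes. No window was found for PSMA7, PSMB1, PSMB6, PSMB7, PSMD4 and PSMG3. No test was made of these shares.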

How the data were processed

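The authors deposited a table of FPKM values with a column per library. Cufflinks 2.2.1, HISAT2 2.1.0, bcl2fastq 2.20.0 and the build hg19 are named, per the submitters' processing notes. Per the labels' protocols, RNA was taken with an RNeasy kit and libraries with a TruSeq Stranded mRNA kit. For annotation, strand setting, filters and read totals the entry is "not given in the sources used here". Without gene lengths no reads were recovered, so no count model, counting interval or floor was used. Relative depth is the most common ratio between libraries over genes below 0.3 FPKM in all of them. All 8 sample columns were used.

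From the FPKM values, log2(FPKM + 1) was fitted with limma 3.58.1 in R 4.3.3, with 1 mean per group, all 8 libraries, 4 residual degrees of freedom and an intensity trend in the prior variance. The test took the 12511 genes that reached 1 FPKM in 2 or more libraries, and p-values (two-sided) were adjusted by Benjamini-Hochberg over them. Changes of low genes are understated on this scale. The procedure was tested on simulated data.

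The genes, the lists and the tests were chosen with earlier results of these data known. Values in every library are given for PSMB5 to PSMB10, PSME1, PSME2, PSMF1 and POMP. The same holds for the called genes with the largest rise and fall per class and line, and the 6 with the largest difference between lines. From each other list, up to 3 called genes per direction and line were named, and some that this rule names are not reported here. Exceptions named for their role or place after their values were seen are PSMA4, PSMB1, PSMB4, PSMD5, PSMD7, PSMD10, PSMD14, PSMG2, PSMG3, TAP1, ERAP1 and HLA-C. Promoters are RefSeq windows on GRCh38.p14 and overlaps are from GENCODE v29, while the FPKM are on hg19, so no position was carried between builds. Alternatives were a pseudocount of 0.1, no filter, a filter at FPKM of 5, median ratio, quantile and short-RNA-free scaling, fits of the compared groups alone, no trend, a replicate block and leaving out each library. The labels do not say whether replicate numbers pair the libraries, so the main fit did not pair them.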

Additional observations from a re-analysis of the deposited data

Results flagged for a closer look

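For 27 of the 47 tested genes the response to cinobufagin differed between the lines, by the contrast of the 2 responses in the same limma fit (adjusted p under 0.05). As 63.1% of all tested genes did so too, a difference by itself does not set the proteasome apart. The values are log2 differences, Kasumi-1 response minus HL60 response. Above 0 were PSMG4 (1.96), PSMB9 (1.55), PSMB10 (1.25), PSMG1 (0.77), PSMB8 (0.55), PSME1 (0.53), PSMD10 (0.49), PSME2 (0.49) and PSMD3 (0.23). Below 0 were PSMC3IP (−1.46), PSMA1 (−1.11), PSMC4 (−0.80), PSMD7 (−0.72), PSMD8 (−0.61), PSMD9 (−0.56), PSMC6 (−0.55), PSME4 (−0.52), PSMD12 (−0.51), PSMA7 (−0.46), PSMD14 (−0.44), PSMC2 (−0.43), PSMD5 (−0.43), PSMG2 (−0.38), PSMC3 (−0.38), PSMD1 (−0.38), PSMB1 (−0.32) and PSMD6 (−0.27). For PSMA1, PSMA7, PSMC3, PSMC6, PSMD7 and PSMD12 the responses were called with opposite signs, lower with treatment in Kasumi-1 and higher in HL60. Among these genes the Kasumi-1 call of PSMA1 alone held under every alternative run. PSMB9 lay below 1 FPKM in every Kasumi-1 library, so its small log2 change there says little about its response.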

How the results depend on the processing

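No called change of the proteasome genes reversed sign under any alternative, while 53 uncalled values did. Of 35 HL60 calls, 23 held under every alternative run, of 24 Kasumi-1 calls 7, of 27 differences between lines 21 and of 31 differences between untreated lines 24. Leaving out 1 library at a time gave 9 to 19 called genes in Kasumi-1, with 0 to 1 rising and 8 to 19 falling, 31 to 36 called in HL60, 25 to 27 differences between lines and 25 to 34 between untreated lines. With a library left out, its group's lone sample is assumed to vary like the other groups. The share called among all tested genes shifted then too. Fitting the Kasumi-1 libraries alone gave 7 called genes, 7 falling and 0 rising. In that line 0 rose with no filter, with no trend or without PSMC3IP, and 14 fell under median ratio scaling. Under median ratio or quantile scaling 3 rose (6.38%, against 13.3% and 13.4% of all tested genes). The falling share lay above that of all tested genes under each alternative run for Kasumi-1 (14.9% against 5.13% for Kasumi-1 alone, 17% against 8.41% without untreated replicate 1). The number falling was 15, 14 and 11 without untreated replicate 2, treated replicate 1 and treated replicate 2. In HL60, 14 fell and 18 rose when libraries were rescaled without short RNAs. The falling share was then below that of all tested genes (29.8% against 30.9%). Under quantile scaling 15 differences between lines were above 0 (31.9%, against 29.4% of all tested genes). Outside the proteasome genes, quantile scaling turned RPS27A to 0.32 in HL60 and −0.39 for the difference between lines, where it was not called in FPKM, and MAFF to −0.14 between untreated lines. With the replicate number as a block, 42 genes were called in HL60 (89.4%, against 78.2% of all tested genes). In Kasumi-1, 33 were called (70.2%, against 38% of all tested genes), 3 rising and 30 falling. That fit called 34 differences between the responses (72.3%, against 69.9%) and 41 between untreated lines (87.2%, against 76.3%). Deviations of same-numbered libraries correlated with r of 0.125 to 0.331, and of 0.272 to 0.434 without short RNAs. With 2 pairs this is a hint from the data, not the design. The cause of these shifts was not tested. Read totals are not known, so no counting error could be set.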
